A study of Homo sapiens with 30 samples.

Results

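A set of 9 genes of iron handling and of the defence against lipid peroxidation was followed through 30 libraries of LX2. This established human line stands for activated hepatic stellate cells, which lay down matrix in the scarring liver. The genes were taken by symbol from the 61597 rows of the deposited expression table, and each of the 9 matched 1 row. The ferritin chains FTH1 and FTL, the ferritin receptor NCOA4, the transferrin receptor TFRC and the exporter ferroportin (SLC40A1) handle iron. GPX4 and AIFM2 act against lipid peroxides, and ACSL4 and LPCAT3 build the phospholipids that peroxidise. The rule names the genes and uses no measured value, though earlier results of these data were known when it was written. Their identifiers in the table are ENSG00000167996.16 (FTH1), ENSG00000087086.15 (FTL), ENSG00000266412.6 (NCOA4), ENSG00000072274.13 (TFRC), ENSG00000138449.11 (SLC40A1), ENSG00000167468.19 (GPX4), ENSG00000042286.15 (AIFM2), ENSG00000068366.21 (ACSL4) and ENSG00000111684.11 (LPCAT3).

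The cells had first received no fatty acid (Veh), oleic acid (OLA, a monounsaturated omega-9 fatty acid) or docosahexaenoic acid (DHA, a polyunsaturated omega-3 fatty acid), each at 50 µM on 20 µM albumin. They then received betacellulin (BTC, a ligand of the ErbB receptors) at 20 ng/ml for 72 h or its vehicle, in medium with 1% serum. A group is written as pretreatment and treatment, so Veh+Veh had neither agent and DHA+BTC had both, and a following digit names the experiment. Each of 5 experiments holds 1 library of each of the 6 groups. The labels are not uniform on the fatty acid: the protocols give pretreatment in 2 cycles of 48 h and also 96 h, and a treatment field gives 72 h, so whether fatty acid was present together with BTC is not settled by them. All libraries come from 1 line cultured on plastic, and nothing in the labels says whether the experiments were separate passages, so the p-values describe only how much these samples vary, which may be technical.

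Iron enters most cells as transferrin bound by TFRC, is stored inside ferritin shells built of FTH1 and FTL chains, is released when NCOA4 carries ferritin to the lysosome, and leaves through ferroportin. When iron is scarce, the iron regulatory proteins bind hairpins called iron-responsive elements, which blocks translation of the ferritin and ferroportin messages and protects the TFRC message from decay. Free ferrous iron drives the peroxidation of polyunsaturated phospholipids. ACSL4 activates long polyunsaturated fatty acids and LPCAT3 places them in phospholipids, the selenoenzyme GPX4 reduces the resulting hydroperoxides with glutathione, and AIFM2 (also called FSP1) regenerates ubiquinol, a radical trap in membranes. Failure of that defence kills cells by ferroptosis.

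The iron-responsive elements are shown because they set apart the members whose messages the iron regulatory proteins bind. They were searched in GENCODE 29 transcripts (build GRCh38) as the letters CNNNNNCAGTGN with the 5 bases on each side of the loop able to pair, and capitals mark the 6-base loop.
FTH1, 5′ UTR, chr11:61967575-61967601, minus strand: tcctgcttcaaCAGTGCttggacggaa
FTL, 5′ UTR, chr19:48965336-48965362, plus strand: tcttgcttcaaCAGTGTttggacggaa
SLC40A1, 5′ UTR, chr2:189580662-189580688, minus strand: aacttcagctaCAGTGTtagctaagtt
TFRC, 3′ UTR, chr3:196050980-196051006, minus strand: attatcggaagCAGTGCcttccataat
TFRC, 3′ UTR, chr3:196050576-196050602, minus strand: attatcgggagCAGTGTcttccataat
TFRC, 3′ UTR, chr3:196050511-196050537, minus strand: tgtatcggagaCAGTGAtctccatatg
TFRC, 3′ UTR, chr3:196050464-196050490, minus strand: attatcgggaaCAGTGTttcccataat
The ferritin messages and ferroportin each hold 1 match in the 5′ UTR, and TFRC holds 4 in the 3′ UTR. The transcripts searched for NCOA4, ACSL4, LPCAT3, AIFM2 and GPX4 held none. Over all genes, 23 of 18540 with a 5′ UTR (0.124%) and 95 of 18834 with a 3′ UTR (0.504%) held a match. A match describes letters in a transcript and is no measure of binding in these cells. A hairpin that departs from these letters or pairs, or lies in another transcript of the gene, would be missed.

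Libraries held 1245182 to 9490142 reads (median 3683035), and the 3 shallowest were all DHA libraries (DHA+BTC 5, DHA+Veh 5 and DHA+BTC 4). Levels are CPM, read counts scaled to a library sum of 1000000, and in these 3′ tag libraries they do not scale with transcript length. Where no read was found, the limit set by counting error alone (3 reads) lay between 0.316 CPM for the deepest and 2.41 CPM for the shallowest library. Stellate markers were present, with 9 of 10 tested and a summed level of 702 to 4162 CPM, while DES reached at most 0.446 CPM. Hepatocyte markers were at or near 0 (0 of 8 tested, summed level 0 to 5.25 CPM). Macrophage and leukocyte markers summed to 13.9 to 102 CPM (7 of 8 tested). The sums were 14.0 to 60.2 CPM without fatty acid, 18.0 to 102 CPM in oleic acid libraries and 13.9 to 65.1 CPM in DHA libraries. The part of these markers in the results was not tested. Of 6 endothelial markers 1 was tested (summed level 0.296 to 46.3 CPM, STAB2 and LYVE1 at 0), and of 5 biliary markers 3 were (8.47 to 50.1 CPM, CFTR at 0). The highest hepatocyte, leukocyte, endothelial and biliary sums were all in 1 library, OLA+BTC 2. The endothelial sum reached at most 7.39 CPM without fatty acid and 10.6 CPM with DHA. In bulk samples fewer cells of a type and less RNA per cell cannot be told apart.

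Of the 9 members, 8 passed the minimum level (1 CPM in at least 5 libraries) and were tested among 15137 genes. The ferritin chains were among the most abundant messages of the line: FTH1 ranked 83 and FTL 200 by mean level of all tested genes. FTH1 averaged 1454 ± 1021 CPM and FTL 657 ± 304 CPM (SD, n = 30). The other tested members lay well below them, at ranks of 1364 (GPX4), 1697 (ACSL4), 2416 (TFRC), 2654 (LPCAT3), 3100 (AIFM2) and 3400 (NCOA4). Mean levels were 141 ± 67.2 CPM for GPX4, 113 ± 99.1 CPM for ACSL4 and 77.9 ± 42.6 CPM for TFRC. LPCAT3 averaged 69.3 ± 20.7 CPM, AIFM2 58.4 ± 15.8 CPM and NCOA4 52.2 ± 19.3 CPM. Every neighbouring pair in that order had overlapping ranges over the 30 libraries.

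For 7 of the 8 tested members more of the spread lay between experiments than between groups. Of the variance of log2 level, 82.9% lay between experiments for GPX4, 71.1% for FTL, 67.1% for ACSL4, 61.7% for TFRC, 50.5% for NCOA4, 49.1% for LPCAT3 and 40.1% for FTH1. The shares between the 6 groups were 3.44% (ACSL4) to 27.1% (LPCAT3) for those genes. AIFM2 had 28.9% between experiments and 38.4% between groups, and SLC40A1, which was not tested, had 20.9% and 32.4%. GPX4 shows the pattern most plainly: its 6 libraries of experiment 1 lay between 58.3 and 80.1 CPM and those of experiment 3 between 132 and 360 CPM. Each range holds all 6 groups, and within experiment 3 Veh+Veh was the highest and DHA+BTC the lowest. The experiment was a term of every main test.

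**Figure D1:**
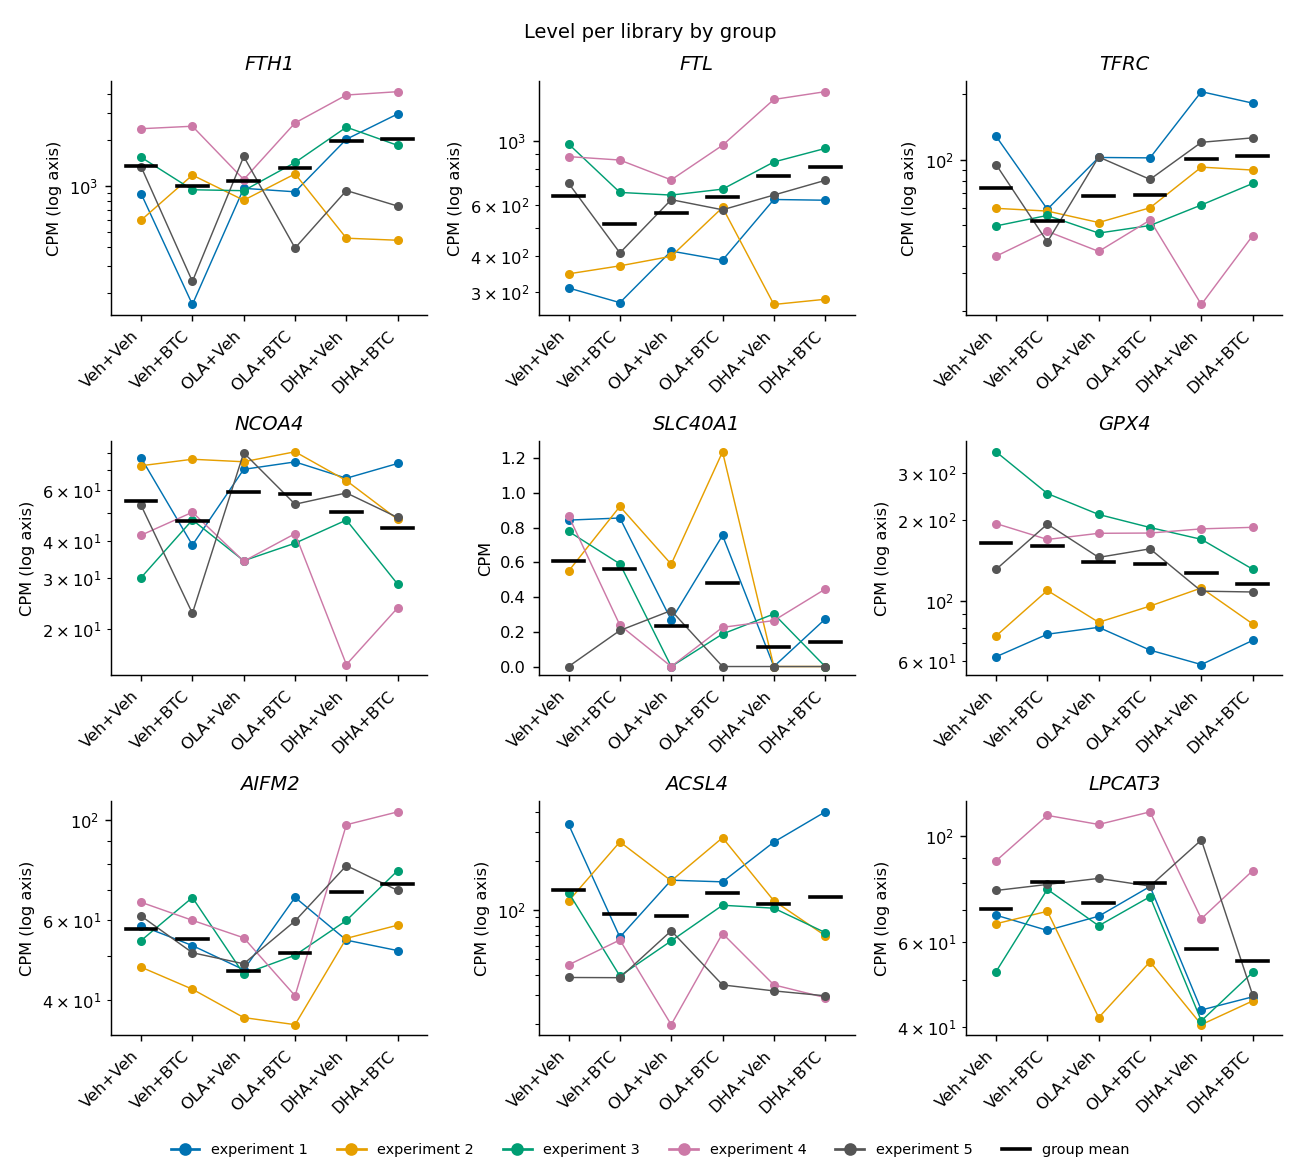
Level of each of the 9 genes in CPM (log axis, except SLC40A1 on a linear axis) in the 6 groups, with 1 point per library, lines joining the libraries of an experiment and black bars for group means. FTH1 and FTL lines of experiment 2 fall from the vehicle to the DHA groups while those of experiments 1, 3 and 4 end higher for FTH1, and LPCAT3 sits lowest in the DHA groups.

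With DHA, averaged over the presence of BTC, the transferrin receptor TFRC rose and the acyltransferase LPCAT3 fell, and the other 6 tested members did not pass. The calls rest on limma with Benjamini-Hochberg adjustment over all 15137 genes. These are 2 of 8 members, beside 10.7% of all genes in either direction (2.33% higher and 8.38% lower). At an unadjusted p under 0.05 there were 6 of 8 members, against 25.6% of all genes. The median difference of the 8 members was 0.085 on the log2 scale and that of all genes -0.13. The members called depend on the tool and scaling: they were TFRC and FTL in edgeR and with median-of-ratios scaling, TFRC, FTL and AIFM2 in DESeq2, and TFRC alone with quantile normalization. With median-of-ratios scaling the median of all genes was -0.045 and with quantile normalization -0.0018, and calls over all genes moved from 352 rises and 1269 falls to 530 and 754 or 520 and 661. No member below changed its direction for DHA against vehicle under these scalings.

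TFRC carried the larger of these changes. In Veh+Veh it measured 128, 59.6, 49.4, 35.8 and 94.97 CPM in experiments 1 to 5, and in Veh+BTC 59.0, 57.9, 55.3, 46.7 and 41.7 CPM. In DHA+Veh it measured 206, 92.3, 61.8, 21.4 and 120.2 CPM, and in DHA+BTC 182, 89.5, 77.6, 44.6 and 126 CPM. Experiments 1, 2, 3 and 5 were higher with DHA and experiment 4 was lower, and the vehicle and DHA ranges overlapped. The mean over the 10 vehicle libraries was 62.9 ± 28.0 CPM, and over the 10 DHA libraries it was 102 ± 58.2 CPM (SD, n = 10 each; log2 difference 0.55 ± 0.18 SE, 95% interval 0.18 to 0.91, adjusted p = 0.0439; 1.46-fold). The differences in experiments 1 to 5 were 1.15, 0.62, 0.40, -0.39 and 0.96. By group mean, TFRC was highest in DHA+BTC and DHA+Veh (104 ± 52.6 CPM and 100.4 ± 69.5 CPM) and lowest in Veh+BTC (52.1 ± 7.56 CPM), and each neighbouring pair in the order of the 6 means differed by less than the larger of its SDs.

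The TFRC call was narrow. It ended without experiments 1, 2, 3 or 5 (adjusted p = 0.197, 0.105, 0.105 and 0.202), without the 3 shallowest libraries (0.175), with no filter (0.0971), with only the groups compared (0.0954), on per-experiment means (0.104) and without the experiment term (0.584). Leaving out a single library ended it too (adjusted p = 0.05 to 0.107): in experiment 1 DHA+BTC or DHA+Veh or OLA+BTC or OLA+Veh or Veh+BTC, in experiment 2 DHA+Veh or Veh+Veh, in experiment 3 DHA+BTC or DHA+Veh or OLA+BTC or Veh+Veh, in experiment 4 Veh+Veh and in experiment 5 DHA+BTC or DHA+Veh or Veh+BTC or Veh+Veh. The adjusted p was smaller in DESeq2 (0.00111) and edgeR (0.00826) on the recovered reads, and under the quantile (0.00734) and median-of-ratios (0.00864) scalings.

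LPCAT3, the lysophospholipid acyltransferase that favours polyunsaturated acyl chains, was lower with DHA in 5 of 5 experiments. Veh+Veh libraries measured 68.4, 65.6, 52.1, 88.8 and 77.0 CPM and Veh+BTC libraries 63.6, 69.7, 77.4, 110.4 and 79.3 CPM. DHA+Veh libraries measured 43.4, 40.4, 41.2, 67.2 and 98.1 CPM and DHA+BTC libraries 46.2, 45.3, 52.0, 84.7 and 46.6 CPM. In experiments 1, 2 and 3 every DHA library lay at or below 52.0 CPM, and the single DHA library above its vehicle partner was DHA+Veh 5. The mean fell from 75.2 ± 15.9 CPM to 56.5 ± 20.2 CPM (SD, n = 10 each; log2 difference -0.45 ± 0.13 SE, 95% interval -0.71 to -0.19, adjusted p = 0.0207). The differences by experiment were -0.55, -0.65, -0.45, -0.39 and -0.20.

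No single library ended the LPCAT3 call, and it was kept without experiment 5 (adjusted p = 0.013) and without the 3 shallowest libraries (0.0102). It ended without experiments 1, 2, 3 or 4 (adjusted p = 0.0724, 0.0733, 0.0729 and 0.0795), with only the groups compared (0.0672), on per-experiment means (0.0766) and without the experiment term (0.406). It was also lost under the scalings that move the median gene up, median-of-ratios (adjusted p = 0.139) and quantile (0.0777), and in edgeR (0.208) and DESeq2 (0.158). Every one of these gave a lower level with DHA.

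The ferritin chains had higher means with DHA and missed the threshold. FTH1, the heavy chain that oxidises iron on entry, measured 894, 598, 1545, 2375 and 1342 CPM in Veh+Veh and 168, 1181, 947, 2466 and 238 CPM in Veh+BTC. In DHA+Veh it measured 2027, 456, 2431, 3946 and 936 CPM, and in DHA+BTC 2968, 443, 1848, 4150.3 and 740.5 CPM. Experiment 4 gave the highest library of each of these groups, and experiment 2 was lower with DHA where the other 4 were higher. The difference was 0.77 (95% interval 0.082 to 1.46, adjusted p = 0.143), and by experiment it was 2.66, -0.90, 0.81, 0.74 and 0.56. The vehicle libraries Veh+BTC 1 and Veh+BTC 5 stood low, and the FTH1 difference was 0.33 without BTC and 1.21 with it (adjusted p = 0.807 and 0.149).

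FTL, the light chain, ranged from 275 to 979 CPM (median 537) without fatty acid and from 271 to 1487 CPM (median 691) with DHA. Its difference was 0.39 (95% interval 0.077 to 0.70, adjusted p = 0.0986), with 1.10, -0.37, 0.15, 0.72 and 0.35 in experiments 1 to 5. Both ferritin genes were lower with DHA in experiment 2. Without that experiment both passed (adjusted p = 0.0153 for FTH1 and 0.00743 for FTL). Single libraries of experiment 2 were enough: FTH1 passed without Veh+BTC 2 (0.0375), and FTL without DHA+Veh 2 (0.0364) or DHA+BTC 2 (0.0278). FTL also passed with median-of-ratios scaling (0.0388), edgeR (0.0323) and DESeq2 (0.0134).

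Ferritin genes have many near-identical processed copies, and reads can be split among them. The table holds 25 FTH1 copy rows, of which 8 had reads, and they took at most 1.47% of the summed FTH1 and copy reads in a library. The 16 FTL copy rows took at most 0.38%. These shares cover only reads counted in a row, so reads left uncounted for matching both a gene and a copy would not be seen. The heavy to light chain ratio of counts had a median of 2.04 over 30 libraries and ran from 0.581 (Veh+BTC 5) to 4.75 (DHA+BTC 1). Its log2 difference with DHA was 0.38 ± 0.79 (SD over 5 experiments; exact two-sided permutation test by sign flips, p = 0.3125, and 0.833 after adjustment over 8 such tests; 4 of 5 experiments higher). The 5 experiments cannot give a p below 0.0625 in that test. The ratio of TFRC to FTH1 differed by -0.22 ± 1.23 (exact permutation p = 0.8125, adjusted p = 0.875; 3 of 5 experiments lower). Its sign turned without experiment 1 (0.099) and without experiment 4 (0.0086).

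NCOA4, which delivers ferritin to autophagosomes, ranged from 22.6 to 77.1 CPM (median 48.8) without fatty acid and from 15.1 to 73.8 CPM (median 47.8) with DHA. Its difference was -0.15 (95% interval -0.55 to 0.24, adjusted p = 0.69), and it ranged by experiment from -1.24 in experiment 4 to 0.60 in experiment 5. The lowest library was DHA+Veh 4 at 15.1 CPM. NCOA4 has 4 copy rows, which took a median of 0% and at most 8.06% of the counted reads.

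Ferroportin was almost absent. SLC40A1 had 45 reads in all 30 libraries together, with at most 8 in a library and a read in 20 libraries, and 4 libraries held more than 3 reads. It reached 1 CPM in 1 library, OLA+BTC 2, which also had the highest hepatocyte, leukocyte, endothelial and biliary marker sums. The 10 libraries without fatty acid held 28 reads in 45151577 (9 libraries with a read), the 10 oleic acid libraries 13 in 42004256 (7 libraries), and the 10 DHA libraries 4 in 30281292 (4 libraries). Over each sum that is 0.620, 0.309 and 0.132 CPM. The gene was below the minimum level for testing, and no fold is given because most libraries lie at or under the 3-read floor. Fitted with no filter, limma gave an adjusted p of 0.0409 for DHA against vehicle. That fit rests on 0 or 1 read in each DHA library, so no change is drawn from it. The other genes of export and systemic control were lower still: none of CP, HEPH, HAMP, HJV, TMPRSS6, BMP6 and FTMT reached testing, and their means were 0 (FTMT) to 0.162 CPM (HEPH).

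GPX4, the main enzyme against phospholipid hydroperoxides, measured 62.3, 74.4, 359.9, 195 and 131 CPM in Veh+Veh and 75.5, 109.9, 252, 170.0 and 194 CPM in Veh+BTC. It measured 58.3, 112, 170.1, 186 and 109 CPM in DHA+Veh and 71.6, 82.5, 132, 189 and 108 CPM in DHA+BTC. The difference was -0.30 (95% interval -0.57 to -0.030, adjusted p = 0.146) and did not pass. It was largest in experiments 3 and 5 (-0.085, 0.089, -1.003, 0.042 and -0.55 in experiments 1 to 5), while experiments 1, 2 and 4 lay within 0.1 of no difference.

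AIFM2 had the smallest spread of the 8 tested members, with an SD of log2 level of 0.36 over the 30 libraries. With DHA it ranged from 51.4 to 104 CPM (median 64.9), and without fatty acid from 42.2 to 67.4 CPM (median 56.2). Its difference was 0.30 (95% interval 0.045 to 0.56), higher in 4 of 5 experiments, with an adjusted p of 0.121 in limma and 0.0244 in DESeq2. ACSL4 had the largest, 1.15. In Veh+Veh it measured 336, 113, 128, 46.0 and 38.5 CPM and in DHA+BTC 401, 69.6, 72.7, 29.0 and 29.7 CPM. Its difference with DHA was -0.13 with a wide interval (-0.72 to 0.45, adjusted p = 0.826), and by experiment it ran from -0.95 to 1.09. The sign of the ACSL4 difference turned without the 3 shallowest libraries (0.015), so no direction is given for it. ACSL4 measured 262 CPM in Veh+BTC 2 beside 38.4 to 68.1 CPM in the other Veh+BTC libraries.

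**Figure D2:**
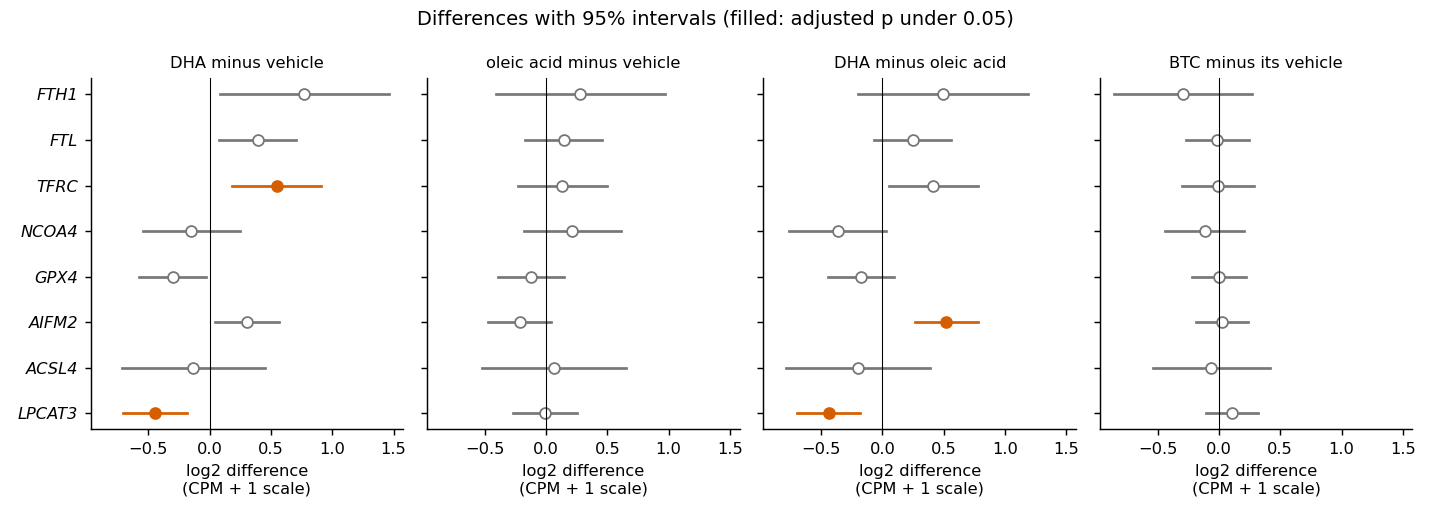
Log2 difference of the 8 tested genes on the log2(CPM + 1) scale with 95% intervals from limma, for DHA, oleic acid, DHA against oleic acid, and BTC, with filled points for adjusted p under 0.05. TFRC and LPCAT3 are filled for DHA against vehicle (0.55 and -0.45), AIFM2 and LPCAT3 for DHA against oleic acid (0.52 and -0.44), and no point is filled for oleic acid or BTC.

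Taken separately by BTC, no member passed in limma for DHA against vehicle. Without BTC, 1.54% of all genes were called (0.595% higher and 0.945% lower) and 0 of 8 members had an unadjusted p under 0.05, against 14.9% of all genes. With BTC, 3.55% of all genes were called (1.08% higher and 2.46% lower) and 6 of 8 members had an unadjusted p under 0.05, against 19.0% of all genes. TFRC came nearest, with a difference of 0.84 with BTC (adjusted p = 0.054) against 0.25 without it (adjusted p = 0.705). LPCAT3 differed by -0.55 with BTC and -0.34 without it (adjusted p = 0.0802 and 0.382). FTL differed by 0.59 and 0.20, and GPX4 by -0.42 and -0.18. Whether these responses differ with BTC is what the interaction tests. It called 0 of 8 members and 0.0% of all genes in limma, with 0 of 8 members at an unadjusted p under 0.05 (3.48% of all genes), and 0 genes in edgeR and DESeq2. The interaction estimates were 0.60 for TFRC (95% interval -0.13 to 1.32), 0.88 for FTH1 (-0.50 to 2.26) and -0.21 for LPCAT3 (-0.73 to 0.31).

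**Figure D3:**
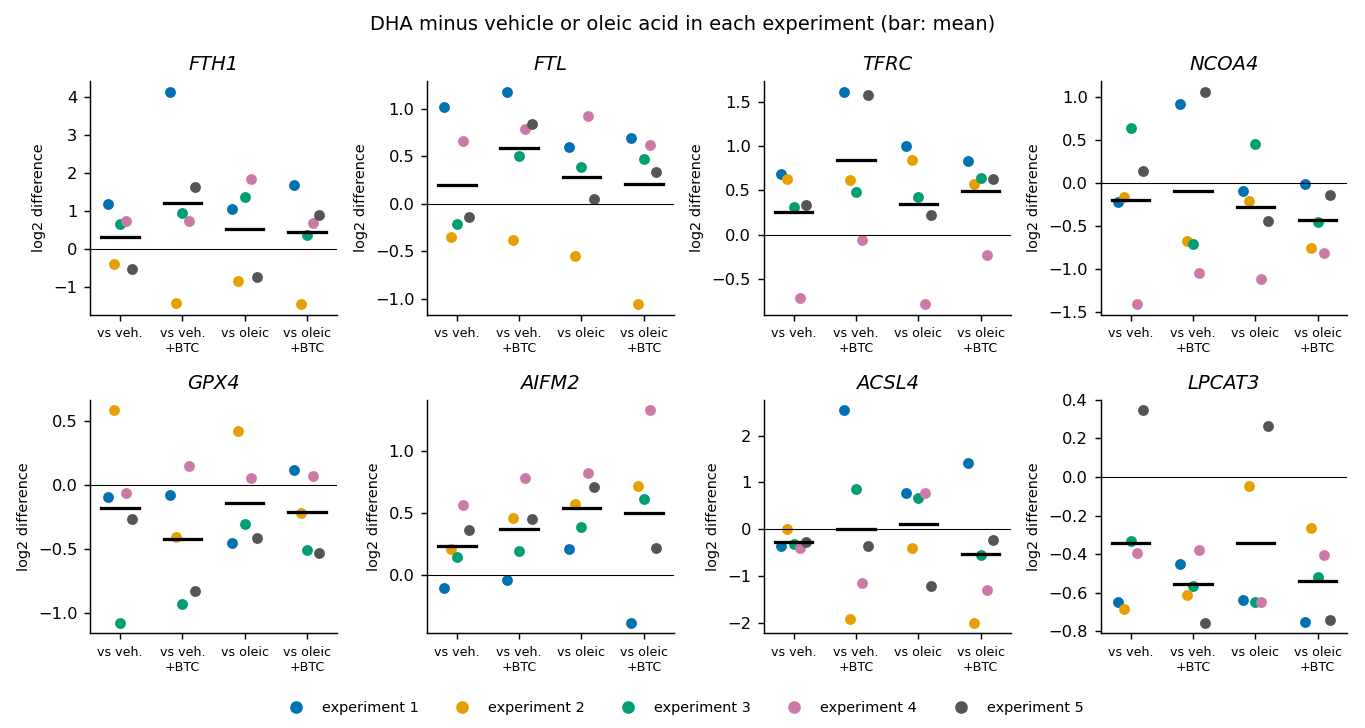
Log2 difference (log2(CPM + 1) scale) of the 8 tested genes in each of the 5 experiments for DHA against vehicle and against oleic acid, without and with BTC, with bars for means. LPCAT3 points lie below 0 except those of experiment 5 without BTC, and TFRC points lie above 0 except the 4 of experiment 4.

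The polyunsaturated and the monounsaturated fatty acid had equal doses (50 µM) and equal times. DHA against oleic acid is 1 pair, tested for 8 members, and it shares its DHA libraries with the comparison above. AIFM2 and LPCAT3 passed, 2 of 8 members beside 11.4% of all genes (2.4% higher and 8.96% lower), and 3 of 8 members had an unadjusted p under 0.05 against 26.7% of all genes. The median of the 8 members was 0.035 and that of all genes -0.17.

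AIFM2 was the lowest after oleic acid and the highest after DHA. It measured 46.6, 36.5, 45.6, 54.9 and 48.1 CPM in OLA+Veh and 67.4, 35.2, 50.2, 40.8 and 59.8 CPM in OLA+BTC. It measured 54.2, 54.7, 59.9, 97.7 and 79.3 CPM in DHA+Veh and 51.4, 58.5, 77.3, 104 and 69.9 CPM in DHA+BTC. Without BTC, DHA+Veh was above OLA+Veh in 5 of 5 experiments, and with BTC experiment 1 was the exception. The means were 48.5 ± 10.1 CPM with oleic acid, 56.0 ± 8.05 CPM without fatty acid and 70.7 ± 18.7 CPM with DHA (SD, n = 10 each). DHA exceeded oleic acid by 0.52 (log2 difference 0.52 ± 0.13 SE, 95% interval 0.26 to 0.78, adjusted p = 0.00751; 1.43-fold), with -0.086, 0.64, 0.50, 1.08 and 0.47 in experiments 1 to 5. The call ended without experiment 4 (adjusted p = 0.117), without the 3 shallowest libraries (0.0692), on per-experiment means (0.0616) and without the experiment term (0.212), and no single library ended it.

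LPCAT3 was lower with DHA than with oleic acid in 5 of 5 experiments. Oleic acid libraries measured 68.1, 41.8, 65.0, 106 and 81.6 CPM without BTC and 78.5, 54.7, 74.7, 112 and 78.6 CPM with it, and the DHA values are given above. The difference was -0.44 (95% interval -0.70 to -0.18, adjusted p = 0.0229), with -0.70, -0.16, -0.58, -0.52 and -0.24 by experiment. The call ended without DHA+BTC 5 (adjusted p = 0.0523), without experiments 1, 3 or 4 (0.101, 0.0945 and 0.126), with median-of-ratios scaling (0.145), quantile normalization (0.0953), edgeR (0.209) and DESeq2 (0.159), on per-experiment means (0.0806) and without the experiment term (0.448).

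The other 6 members did not pass between the fatty acids. TFRC differed by 0.41 (95% interval 0.051 to 0.78, adjusted p = 0.127), and it passed in DESeq2 (0.00958) and edgeR (0.0296), under the quantile (0.0297) and median-of-ratios (0.0374) scalings, and without experiment 4 (0.0197) or DHA+Veh 4 alone (0.02). FTH1 differed by 0.49 (95% interval -0.20 to 1.18, adjusted p = 0.368) and FTL by 0.25 (-0.067 to 0.56, adjusted p = 0.313), and FTL passed without experiment 2 (0.0194). NCOA4 differed by -0.36 (-0.76 to 0.032), GPX4 by -0.18 (-0.45 to 0.094) and ACSL4 by -0.20 (-0.79 to 0.39). These intervals still hold differences of the size seen for LPCAT3, so the fatty acids are not shown to act alike on them. Without and with BTC separately, 0 of 8 members passed in limma, beside 3.27% (0.892% higher, 2.38% lower) and 1.72% (0.608% higher, 1.12% lower) of all genes, and 1 and 2 of 8 members had an unadjusted p under 0.05, against 18.3% and 15.8% of all genes.

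Oleic acid against vehicle gave no call. In limma 0 of 8 members and 0.0% of all genes were called, 0 of 8 members had an unadjusted p under 0.05 (2.0% of all genes), and edgeR and DESeq2 called 0 genes. Differences of the members ran from -0.22 (AIFM2, 95% interval -0.47 to 0.042) to 0.28 (FTH1, -0.41 to 0.97). LPCAT3 differed by -0.0081 (-0.27 to 0.25) and TFRC by 0.13 (-0.23 to 0.50). AIFM2 was lower with oleic acid without BTC in 5 of 5 experiments, a difference of -0.30 that did not pass (adjusted p = 0.9999).

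Betacellulin gave no call either. Averaged over the pretreatments, 0 of 8 members and 0.0% of all genes passed in limma, 0 of 8 members had an unadjusted p under 0.05 (4.02% of all genes), and edgeR and DESeq2 called 0 genes. GPX4, FTL, TFRC and AIFM2 differed by 0.0029, -0.014, -0.0088 and 0.027, the widest interval being that of TFRC (-0.30 to 0.29), and the signs of these 4 turned under other settings. LPCAT3 differed by 0.10 (-0.11 to 0.32). The widest member was FTH1, at -0.29 (-0.85 to 0.27). Its difference with BTC was -0.91 after vehicle (95% interval -1.89 to 0.063, adjusted p = 0.522), where Veh+BTC 1 and Veh+BTC 5 lay at 168 and 238 CPM beside 894 and 1342 CPM in their Veh+Veh partners. After oleic acid it was 0.070 and after DHA -0.031. The oleic acid by BTC interaction called 0 of 8 members and 0.0% of all genes in limma, with 0 members at an unadjusted p under 0.05 (8.45% of all genes) and 0 genes in edgeR and DESeq2.

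Genes whose levels followed each member most closely were found over the 30 libraries after the experiment means were removed, among 6200 genes with a mean of at least 20 CPM. The correlations describe these libraries, which share depth and treatment, and carry no test. FTL was most like FTH1 (Pearson r = 0.82), then SAT1 (0.79) and AKR1B1 (0.77). FTH1 was most like SEC61G (0.95), TMSB4X (0.94) and ZFAS1 (0.92). TFRC was most like ABHD17C (0.77), NAA20 (0.77) and EXOSC6 (0.76). Among the genes most like LPCAT3 were CREB3L1 (0.75) and CCDC80 (0.72). AIFM2 was most like CHPF2 (0.77), HDGF (0.77) and GYS1 (0.76), and GPX4 was most like C12orf57 (0.84), SEC22C (0.81) and MRPL28 (0.78). ACSL4 was most like CAPZB (0.92), RB1 (0.91) and CHCHD3 (0.91), and NCOA4 most like SRSF10 (0.89), NAP1L1 (0.88) and TFAM (0.86). Among the members themselves, FTH1 and ACSL4 followed at 0.67, FTH1 and TFRC at 0.53, and TFRC and NCOA4 at 0.51. The lowest were GPX4 and TFRC at -0.45, FTL and LPCAT3 at -0.44, and AIFM2 and ACSL4 at -0.43.

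The other 10 lists of iron and peroxidation genes, with 101 genes of which 82 were tested, place the members in their pathways. The lists were chosen with earlier results of these data known. With DHA against vehicle, 11 rose and 8 fell, 23.2% of the 82, beside 10.7% of all genes (2.33% higher and 8.38% lower). The share of all genes depends on the filter: 1621 of 15137 were called, and 1681 of 11239 at 5 CPM in at least 5 libraries. The median of the 82 was -0.11 beside -0.13 for all genes. Of 12 tested genes of iron uptake and transport, 4 rose and 0 fell, with a list median of 0.54. SLC11A2, the ferrous iron transporter of endosomes, rose from 28.6 ± 11.7 to 59.5 ± 37.8 CPM (SD, n = 10 each; difference 0.91, adjusted p = 0.0024), and SLC39A14, which imports iron not bound to transferrin, from 61.9 ± 30.8 to 146 ± 93.3 CPM (1.13, adjusted p = 0.00765). SLC25A37, the mitochondrial iron importer mitoferrin, rose from 425 ± 214 to 908 ± 512 CPM (1.01, adjusted p = 1.11e-05). The metalloreductase STEAP1 rose from a level near the floor, 0.717 ± 0.662 to 4.13 ± 3.92 CPM (1.36, adjusted p = 0.00472). Its vehicle mean lay below the 1 CPM minimum and its DHA mean above it, so its place among the 12 may rest on the DHA libraries. The count of 4 became 2 of 12 without experiment 5 and without the 3 shallowest libraries, and 0 without the experiment term. Without the 3 shallowest libraries the calls of SLC39A14 (0.109) and SLC11A2 (0.0522) ended, and without experiment 5 those of SLC39A14 (0.0599) and STEAP1 (0.0568).

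The iron regulatory protein ACO1 rose by 0.53 (adjusted p = 0.00345; 5 of 5 experiments), from 156 ± 50.7 to 219 ± 55.1 CPM. IREB2, the other iron regulatory protein, differed by -0.044 (95% interval -0.36 to 0.27, adjusted p = 0.895). In heme breakdown the inducible oxygenase HMOX1, which frees iron from heme, rose by 1.20 (adjusted p = 4.96e-05) and the constitutive HMOX2 fell by 0.37 (adjusted p = 0.0469), and the other 8 heme genes did not pass. The HMOX2 call ended in 35 of 47 alternatives. Of 7 genes of iron-sulfur clusters, the mitochondrial outer membrane protein CISD1 fell by 0.43 (adjusted p = 0.022), a call that ended in 11 of 47 alternatives. That is 1 of 7, near the share of all genes. Of 5 tested genes of ferritin turnover, 0 passed in limma.

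Cystine import and glutathione synthesis supply the substrate of GPX4. Of 9 tested genes of cystine and glutathione, 3 rose and 0 fell: SLC7A11 and SLC3A2, the chains of the cystine importer, by 1.21 and 0.87 (adjusted p = 6.84e-05 and 4.96e-05), and GCLM, the modifier subunit of glutathione synthesis, by 0.72 (adjusted p = 0.00546). Of 7 genes of selenoprotein synthesis, only LRP8, a receptor for selenoprotein P, passed and fell by 0.65 (adjusted p = 0.00967). Of 13 tested genes of defence without glutathione, the quinone reductase NQO1 rose by 0.44 (adjusted p = 0.0121) and the acyltransferase MBOAT1 fell by 0.90 (adjusted p = 0.0151). The counts for selenoprotein synthesis and for defence without glutathione lie near the share of all genes. Of 47 alternatives, the call ended in 8 for MBOAT1, 6 for LRP8, 5 for NQO1 and 3 for GCLM.

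Beside LPCAT3, the list of phospholipid remodelling and peroxidation had 4 of 16 tested genes falling and 1 rising. The desaturases SCD, FADS2 and FADS1 fell by 1.31, 0.996 and 0.43 (adjusted p = 4.96e-05, 0.0104 and 0.0109), and ACSL3, which activates monounsaturated fatty acids, fell by 1.003 (adjusted p = 0.00205). SAT1, the spermidine acetyltransferase, rose by 0.50 (adjusted p = 0.0466). The lipoxygenase genes ALOX5, ALOX12, ALOX15, ALOX15B and ALOXE3 were not tested, with means of 0 to 0.0324 CPM. Without the 3 shallowest libraries 2 of the 16 fell and 0 rose in limma, and the calls of FADS2 (0.163), ACSL3 (0.0637) and SAT1 (0.21) ended. The FADS1 call ended with median-of-ratios scaling (0.109), and that of SAT1 in 27 of 47 alternatives.

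DHA against oleic acid gave 11 rises and 9 falls among the 82 (24.4%), beside 11.4% of all genes (2.4% higher and 8.96% lower), with the DHA libraries shared. Over all genes that is 1719 of 15137, and with the 5 CPM filter it was 1777 of 11239. SLC11A2, SLC25A37, SLC39A14 and STEAP1 were higher with DHA by 0.69, 0.96, 1.14 and 1.41, ACO1 by 0.57 and HMOX1 by 1.18. Of 47 alternatives, these calls ended in 7 for SLC11A2, 4 for SLC39A14, 1 each for SLC25A37 and ACO1, and 0 for HMOX1. For STEAP1 the call ended in 2 of 46. In this comparison GPX1, a glutathione peroxidase of soluble peroxides, was lower by 0.61 (adjusted p = 0.0345) and TAX1BP1, an autophagy receptor in ferritin turnover, by 0.39 (adjusted p = 0.0249). The GPX1 call ended in 17 and the TAX1BP1 call in 14 of 47 alternatives, median-of-ratios scaling among them (0.0962 and 0.131). For oleic acid, BTC and both interactions limma called 0 of the 82.

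**Figure D4:**
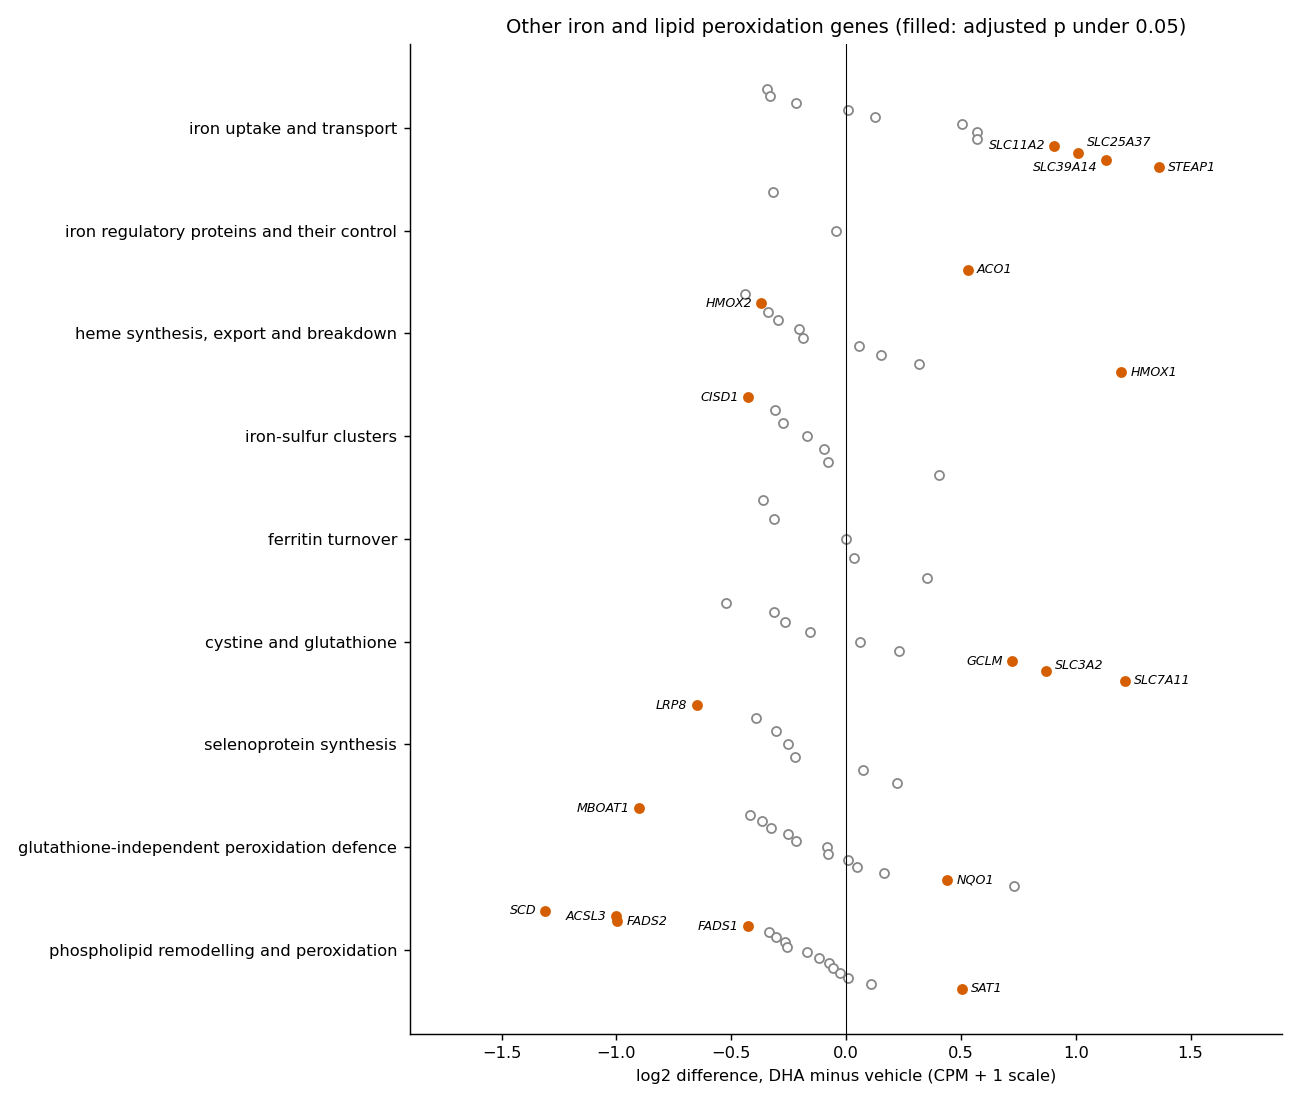
Log2 difference for DHA against vehicle (log2(CPM + 1) scale) of the 82 tested genes of the other lists, 1 point per gene, with filled and named points for adjusted p under 0.05. The filled points of iron uptake and transport and of cystine and glutathione lie to the right of 0 (0.72 to 1.36), and 4 of the 5 of phospholipid remodelling lie to the left (-1.31 to -0.43).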

How the data were processed

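RNA of 30 LX2 cultures was sequenced from 3′ ends (Lexogen QuantSeq FWD), per the labels' protocols. STAR 2.5.3a and HTSeq 0.6.0 are named in the submitters' processing notes; settings, build, annotation and strand are not given in the sources used here. The deposited values are CPM, scaled by the authors to a sum of 1000000 per library, and 100% of values were whole reads (within 0.01) once divided by each library's step. Symbols were matched for 42046 of 61597 rows (68.3%). The main test was limma 3.58.1 (R 4.3.3) on log2(CPM + 1) of 15137 genes with at least 1 CPM in at least 5 libraries, with group and experiment as terms, trended variance and Benjamini-Hochberg adjustment over all genes, called at 0.05. A fold on that scale understates changes of low genes. The labels give the experiment of each library. Deviations from group means correlated above 0 in all 75 same-experiment pairs (0.119 to 0.743, median 0.507). In 360 other pairs the correlation ran from -0.743 to 0.696 (median -0.20). Deviations within a group sum to 0, which by itself pushes the other pairs below 0. Alternatives were other pseudocounts, filters and scalings, no replicate block, per-experiment means, only the groups compared, left-out experiments and libraries, and edgeR 4.0.16 and DESeq2 1.42.0 on the recovered reads. Ratios used an exact sign-flip permutation test over 5 experiments. Scripts were tested on simulated data. All 9 members are named, with up to 4 called genes of smallest p per other list, 6 fixed genes (HMOX1, SLC7A11, ACSL3, SCD, IREB2 and ACO1) and the 3 genes most like each member, of which 1 is not reported here; other genes named were chosen after their values were seen. The members and lists were chosen with earlier results of these data known.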

Additional observations from a re-analysis of the deposited data

Results flagged for a closer look

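Within groups of 5 libraries, 3 values stood far from the other 4. ACSL4 measured 262 CPM in Veh+BTC 2, beside 38.4 to 68.1 CPM in the other Veh+BTC libraries. It measured 401 CPM in DHA+BTC 1, beside 29.0 to 72.7 CPM in the others. LPCAT3 measured 84.7 CPM in DHA+BTC 4, beside 45.3 to 52.0 CPM. The search covered 54 groups, 9 genes in 6 groups each, and chance flags about 1 in 20 such groups.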

How the results depend on the processing

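Against vehicle the count of 2 became 1 with quantile normalization and without the 3 shallowest libraries, and 0 without the replicate block, on per-experiment means with the replicate block, and with only the groups compared. It was 3 in DESeq2 (TFRC, FTL and AIFM2), and in edgeR and with median-of-ratios scaling the 2 were TFRC and FTL. Leaving out 1 experiment or 1 library gave 0 to 3. Against oleic acid the count of 2 became 1 without the 3 shallowest libraries and 0 without the replicate block and on per-experiment means, and leaving out 1 experiment or 1 library gave 1 to 3. Over all genes the calls against vehicle fell from 1621 to 104 without the replicate block, 784 on per-experiment means, 1001 with only the groups compared, 575 without the 3 shallowest libraries and 950 in edgeR, and to 966, 763 and 787 without experiments 3, 4 and 5. Against oleic acid they fell from 1719 to 68, 771, 537 and 965 (no block, per-experiment means, shallowest out, edgeR), and to 1118, 601 and 665 without experiments 3, 4 and 5. With DESeq2 they were 1370 and 1411 (636 and 664 higher), in edgeR 454 and 484 were higher, and with median-of-ratios scaling 515 rose and 751 fell against oleic acid (532 and 648 with quantile normalization). The cause was not tested. Differences near 0 changed sign. Without the 3 shallowest libraries, ACSL4 gave 0.015 for DHA against vehicle, TFRC 0.034 and GPX4 -0.034 for BTC, and LPCAT3 0.016 for the DHA by BTC interaction. For BTC, median-of-ratios scaling gave FTL 0.015 and TFRC 0.020, DESeq2 gave FTL 0.010, TFRC 0.0081 and ACSL4 0.064, and edgeR gave ACSL4 0.053. For the DHA by BTC interaction, NCOA4 was -0.035 in edgeR and -0.017 in DESeq2. Other signs turned when 1 experiment or 1 library was left out. For DHA against vehicle, the ranges were ACSL4 -0.44 to 0.070, NCOA4 -0.34 to 0.12 and log2 ratio TFRC/FTH1 -0.66 to 0.10. For oleic acid against vehicle, the ranges were LPCAT3 -0.047 to 0.11, ACSL4 -0.13 to 0.22, log2 ratio FTH1/FTL -0.037 to 0.29 and log2 ratio TFRC/FTH1 -0.34 to 0.081. For DHA against oleic acid, the ranges were ACSL4 -0.52 to 0.049 and log2 ratio TFRC/FTH1 -0.56 to 0.35. For BTC against its vehicle, the ranges were GPX4 -0.051 to 0.090, ACSL4 -0.25 to 0.069, FTL -0.078 to 0.048, TFRC -0.17 to 0.11, AIFM2 -0.033 to 0.078, FTH1 -0.49 to 0.037 and NCOA4 -0.24 to 0.027. For DHA by BTC interaction, the ranges were ACSL4 -0.39 to 0.81, NCOA4 -0.17 to 0.48 and LPCAT3 -0.31 to 0.013. For oleic acid by BTC interaction, the ranges were LPCAT3 -0.13 to 0.070 and NCOA4 -0.023 to 0.49. Genes with few reads, SLC40A1 and STEAP1 among them, are limited by depth. List counts were recomputed under settings chosen after seeing the data.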
